A study of Rattus norvegicus with 9 samples.

Results

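miR-10a and miR-10b are related miRNAs whose genes lie inside the Hox gene clusters, and their reads were followed here through the left ventricular wall of the rat. All sequences that the authors annotated to the rat entries mir-10a or mir-10b were taken, which gave 2 genes of the 292 rat miRNA name stems with reads. They comprised 822 different sequences of the 46358 annotated, of which 653 were filed under mir-10a, 160 under mir-10b and 9 under both names. Those 9 held 16 reads, which count in the totals of the pair given here but in neither member's own values. The choice by name used no measured value, but the pair was selected on earlier results of these samples, in which its levels differed between epicardium and endocardium. Levels in those layers are therefore given as a description, without a test of the members.

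Small RNA was sequenced from epicardium, mid-myocardium and endocardium of the left ventricular free wall of 3 male Sprague-Dawley rats aged 8 months (hearts 6, 7 and 8). The labels name no treatment or genetic change, and each heart gave 1 library for each layer, so that each layer had 3 libraries. The layers were cut by distance from the wall's surfaces, so each library holds all the cell types of that slice. Abundance is given as RPMM, the reads in each 1000000 annotated reads of the library, and annotated reads ranged from 283991 to 1428025 per library. The members took 170678 of 7631327 annotated reads, and between 0.421% and 3.79% of a library.

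MicroRNAs are cut from a hairpin first by Drosha in the nucleus and then by Dicer, and bases 2 to 8 of the product, the seed, largely choose the mRNAs that are bound. A cut that moves by 1 nt moves the seed with it, so 5′ variants (5′ isomiRs) can bind other mRNAs, whereas 3′ variants keep the seed. The miR-10 family is known for its place among the Hox genes, several of which it can repress, and for roles in endothelial cells. In RefSeq (GRCr8) the rat Mir10a gene is on chromosome 10 between Hoxb5 and Hoxb4, and Mir10b on chromosome 3 between Hoxd4 and Hoxd3.

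The RefSeq hairpins show where the products lie. Capitals mark the registered products of the 5′ arm and of the 3′ arm.
Mir10a hairpin: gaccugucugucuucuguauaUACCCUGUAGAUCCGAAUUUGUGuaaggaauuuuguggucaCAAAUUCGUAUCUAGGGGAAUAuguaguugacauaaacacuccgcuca
Mir10b hairpin: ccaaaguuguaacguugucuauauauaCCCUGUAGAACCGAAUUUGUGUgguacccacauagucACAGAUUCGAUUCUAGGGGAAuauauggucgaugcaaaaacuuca
The registered 5′ products start at different places on stretches of the hairpins that are nearly the same. Counted from the first base of the miR-10a product, the 5′ product stretches of the hairpins differ at T12A (the miR-10a base first) and next at A25G, and the miR-10b product is registered 2 nts further in. The registered seeds therefore differ, although the stretch that holds them is the same in both genes. In the sequences that follow, taken from the deposited reads, capitals mark the seed.
miR-10a mature entry: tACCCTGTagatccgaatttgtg
miR-10b mature entry: cCCTGTAGaaccgaatttgtgt
The most abundant sequence of each gene and the most abundant one that starts 1 nt later show the starts that were in fact sequenced.
miR-10a, most abundant: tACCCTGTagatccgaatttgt
miR-10a, starting 1 nt later: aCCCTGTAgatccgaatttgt
miR-10b, most abundant: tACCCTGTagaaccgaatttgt
miR-10b, starting 1 nt later: aCCCTGTAgaaccgaatttgt
The most abundant sequence of miR-10b thus has the seed of the miR-10a entry and not that of its own entry.

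The base at position 12, the only one that tells the products apart before position 25, was read cleanly. Annotated reads of any species that held the stretch around it were counted. C stood there in at most 0.0821% and G in at most 0.0117% of the reads of a library. T (miR-10a) or A (miR-10b) stood there in all others. Elsewhere in the miR-10a reads that start at the entry's first base, the share of reads with another base was between 0.0303% and 0.0989% per position, with a median of 0.0542%. The reads assigned to miR-10b made up between 3.22% and 30.9% of the pair's reads over the 9 libraries, so the lowest share too was above these values.

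miR-10a was among the abundant miRNAs of the wall, ranking 10 of 577 rat names by mean level. In epicardium of hearts 6, 7 and 8 it reached 34068, 23776 and 28171 RPMM, a mean of 28671 ± 5165 (SD, n = 3). In mid-myocardium it was 29064, 25697 and 3489 RPMM in the same order, a mean of 19417 ± 13896 (SD, n = 3). In endocardium it was 3830, 20187 and 21822 RPMM, a mean of 15280 ± 9949 (SD, n = 3). All epicardial libraries stood above all endocardial ones, as in 12 of 279 names (4.30%), and this contrast chose the pair. Mid-myocardium overlapped both layers because heart 8 was the lowest of the 9 libraries and heart 6 the second highest.

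miR-10b was on average less abundant and ranked 42 of 577. In epicardium its levels were 3804, 2300 and 2970 RPMM for hearts 6, 7 and 8, a mean of 3024 ± 754 (SD, n = 3). In mid-myocardium it was 1208, 854 and 1562 RPMM, a mean of 1208 ± 354 (SD, n = 3). In endocardium it was 378, 1829 and 1367 RPMM, a mean of 1191 ± 741 (SD, n = 3). The 3 epicardial libraries were the 3 highest of the 9, and mid-myocardium and endocardium overlapped. Epicardium stood wholly above endocardium in 12 of 279 names (4.30%) and wholly above mid-myocardium in 17 of 277 (6.14%). The share of names with both is not given here. This order is a description, since the contrast of epicardium and endocardium chose the pair.

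**Figure D1:**
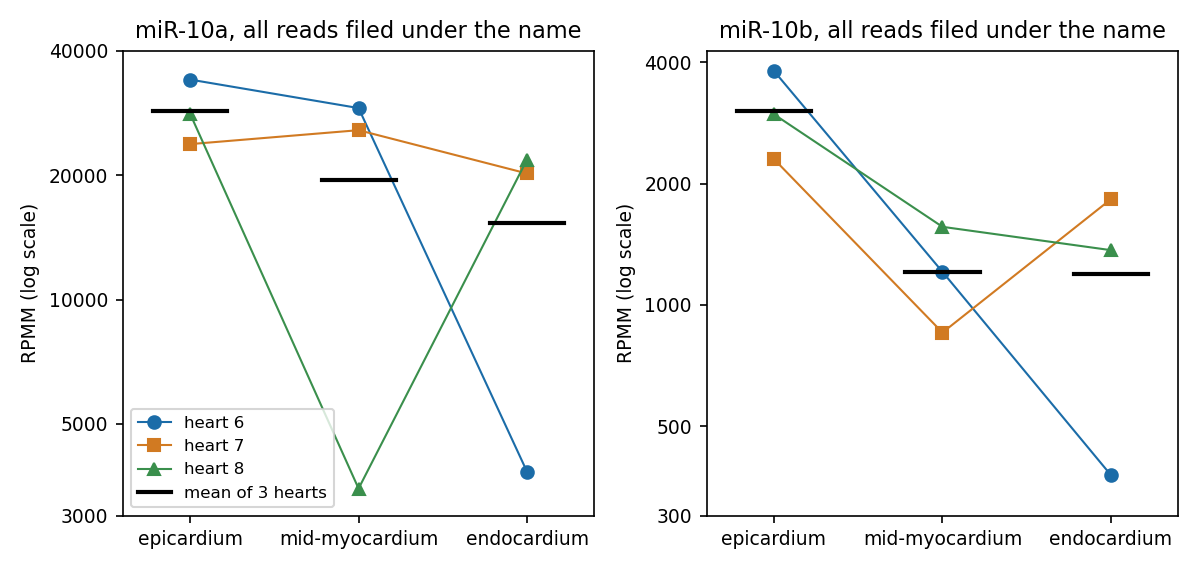
Level of miR-10a (left) and miR-10b (right) in RPMM on a log scale, by layer, with a point for each library, lines that join the layers of a heart and black bars for the mean of 3 hearts. Mid-myocardium of heart 8 is low for miR-10a at 3489 RPMM but not for miR-10b at 1562 RPMM, and endocardium of heart 6 is low for both.

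Between endocardium and epicardium the question was whether levels differ between the wall's inner and outer surfaces. The difference, endocardium minus epicardium, was -1.25 on the log2(RPMM + 1) scale for miR-10a (SE 0.62) and -1.59 for miR-10b (SE 0.56). Of 279 rat names tested by limma with Benjamini-Hochberg adjustment over all of them, 0 passed an adjusted p of 0.05 (0%), and 8 had an unadjusted p under that value. Every epicardial library was above every endocardial library in 12 of the 279 names (4.30%), and both members were among those 12, from which nothing is read since this contrast chose the pair. Within hearts the size of the difference was uneven. The epicardial level of miR-10a was 8.89 times the endocardial in heart 6, but 1.18 times in heart 7 and 1.29 times in heart 8. For miR-10b these ratios were 10.1, 1.26 and 2.17. Without the endocardial library of heart 6 the log2 difference shrank to -0.43 for miR-10a and -0.91 for miR-10b. In these bulk samples fewer cells of an expressing type and less RNA per cell cannot be told apart.

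Between mid-myocardium and epicardium, the level of miR-10b was lower in mid-myocardium in each of the 3 hearts, by 1.34 on the log2 scale (SE 0.33), and the epicardial level was 3.15, 2.69 and 1.90 times the mid-myocardial one in hearts 6, 7 and 8. This did not pass limma's test (adjusted p = 0.453), in which 0 of 277 names were called (0%), and 18 had an unadjusted p under 0.05. edgeR called 0 as well, with 17 at that unadjusted value. In 17 of the 277 names (6.14%) every epicardial library was above every mid-myocardial one, miR-10b among them. The epicardial libraries of this comparison are those on which the pair was chosen, so that the p-values of the members here are not independent of the choice. DESeq2's Wald test on the recovered reads, an alternative, called 1 name, miR-10b (adjusted p = 0.0105), and over the other alternatives listed in advance its adjusted p ran from 0.194 to 0.923. For miR-10a the log2 difference, mid-myocardium minus epicardium, was -1.04 (SE 0.74, limma adjusted p = 0.80). It was -0.05 without the mid-myocardial library of heart 8, and in heart 7 mid-myocardium was the higher of the 2 layers.

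Between mid-myocardium and endocardium neither member showed a difference beyond the spread of the hearts. The log2 difference, mid-myocardium minus endocardium, was 0.21 for miR-10a, with a 95% interval from -2.01 to 2.43, and 0.26 for miR-10b, with an interval from -1.09 to 1.60. The intervals are wide enough to hold a 2-fold difference in either direction. No name of 276 was called by limma (0%), and 10 had an unadjusted p under 0.05. On the recovered reads edgeR and DESeq2 called 0 names here, with 11 and 6 at an unadjusted p under that value, and 0 between endocardium and epicardium, with 6 and 7. Leaving out the mid-myocardial library of heart 8 moved the miR-10a value to 1.20. Leaving out mid-myocardium of heart 6 or of heart 7, or endocardium of heart 6, turned it to -0.33, -0.24 and -0.61. The miR-10b value turned to -0.43 without endocardium of heart 6.

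Between hearts, with layer as a covariate, limma's F test gave an adjusted p of 0.876 for miR-10a and 0.85 for miR-10b. It called 0 of 283 names (0%) and 37 had an unadjusted p under 0.05. No heart was high or low as a whole for the pair. Heart 6 had the highest level of both members in its epicardium and the lowest level of miR-10b in its endocardium.

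The pair was among the miRNAs that varied most between libraries. Over the 180 names with at least 10 reads in each library, the highest of the 9 levels was 2.11 times the lowest in the median. It was 10.1 times for miR-10b, rank 2 of 180, and 9.76 times for miR-10a, rank 4. For miR-10b these levels were epicardium and endocardium of heart 6, the layers whose contrast chose the pair. The ranks are therefore a description. Ranks 1 and 3 were taken by mir-99b (12.4 times) and mir-100 (9.84 times), whose mature sequences resemble the miR-10 products. Their low libraries were partly others, since mir-99b stood at 2573 RPMM in epicardium of heart 6, where miR-10a and miR-10b were at their highest. Endocardium of heart 6, low for the pair, was also the lowest of the 9 libraries for mir-99b (1675 RPMM) and mir-100 (739 RPMM). In mid-myocardium of heart 8, miR-10a was at 0.127 of the mean of the other hearts, the lowest such ratio of the 180 names, while miR-10b was at 1.52. In endocardium of heart 6 these ratios were 0.182 and 0.237, ranks 3 and 4 from the lowest. That library also entered the contrast that chose the pair, so nothing is read from these ranks. Over the 180 names, the median Pearson correlation of log2 levels with the other libraries was 0.98 for mid-myocardium of heart 8 and 0.975 for endocardium of heart 6, the latter the lowest in a range of 0.975 to 0.985 over the 9 libraries. They held 1052663 and 711437 annotated reads. The part of depth in the low values was not tested.

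The low values were shared by the sequences of a member. Among the 10 most abundant sequences of miR-10a, the level in mid-myocardium of heart 8 was between 0.10 and 0.171 of the mean of hearts 6 and 7. Among the 10 of miR-10b the same ratio was between 1.12 and 5.23, so that no sequence of the one gene overlapped those of the other. In endocardium of heart 6 the ratios to hearts 7 and 8 were 0.132 to 0.212 for miR-10a, and for miR-10b they ran from 0, where a sequence had no read in that library, to 0.345. Sequences of a gene share their source and their library, and are not replicates of it.

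**Figure D2:**
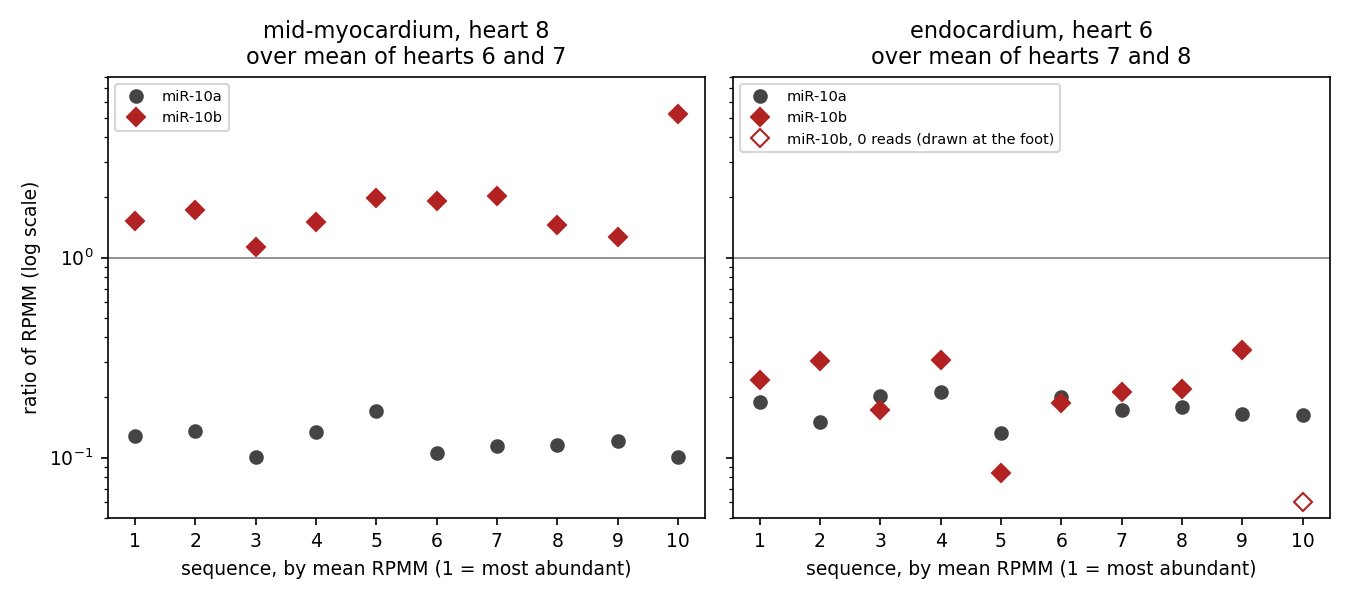
Ratio of RPMM in 1 library to the mean of the other 2 hearts of its layer, on a log scale, for the 10 most abundant sequences of miR-10a and of miR-10b, ordered by mean RPMM. In mid-myocardium of heart 8 (left) the miR-10a sequences lie between 0.10 and 0.171 and the miR-10b sequences above 1, and in endocardium of heart 6 (right) both lie below 1. The open symbol at the foot is a miR-10b sequence with 0 reads.

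The balance between the members varied most in mid-myocardium. In epicardium miR-10b made up 10.04%, 8.82% and 9.54% of the reads of the pair in hearts 6, 7 and 8. In endocardium its share was 8.98%, 8.31% and 5.89%, which overlapped epicardium, with means of 7.73% ± 1.62 and 9.47% ± 0.615 (SD, n = 3). In mid-myocardium heart 6 had a share of 3.99% and heart 7 one of 3.22%. Heart 8 had a share of 30.9%, with a 95% Wilson interval of 29.7 to 32.2. The mid-myocardial libraries of hearts 6 and 7 were thus the lowest of the 9 and that of heart 8 the highest, with no overlap of the intervals between heart 8 and any other library. Wilson intervals cover counting error only, since reads amplified by PCR without molecular identifiers are not independent molecules.

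**Figure D3:**
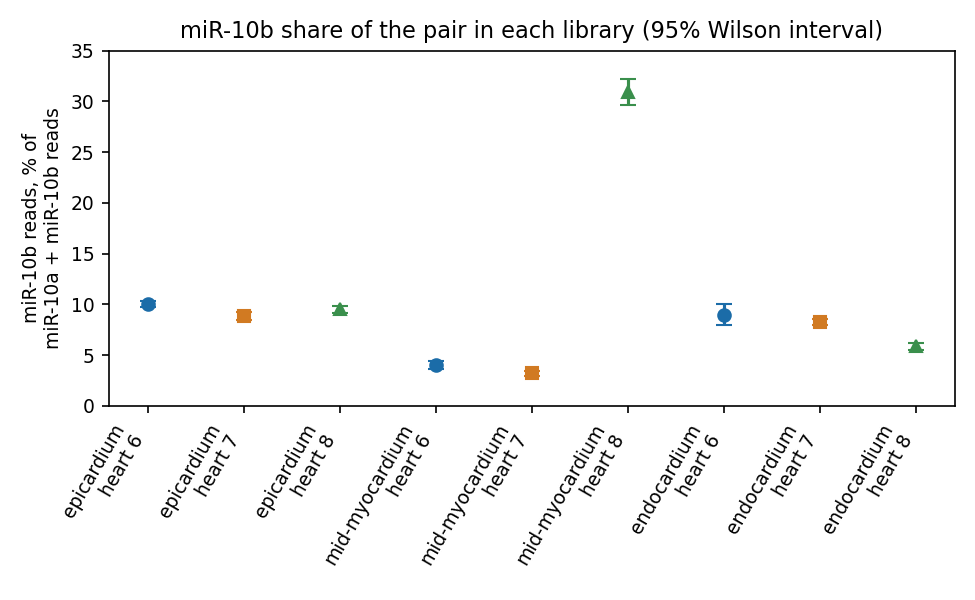
Reads of miR-10b as a percentage of the reads of miR-10a and miR-10b in each of the 9 libraries, with 95% Wilson intervals. Epicardium and endocardium lie between 5.89% and 10.04%, and mid-myocardium holds both the lowest share, 3.22% in heart 7, and the highest, 30.9% in heart 8.

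Over the 9 libraries the log2 levels of miR-10a and miR-10b had a Pearson correlation of 0.58 (Spearman's rho 0.40), which is a description, since the layers of a heart share an animal and both values share a library. It was 0.79 without mid-myocardium of heart 8 and 0.20 without endocardium of heart 6. Among the 180 names, those whose log2 levels were most like miR-10a were mir-125b-2* (r = 0.72), mir-9 (0.68), mir-127 (0.58), mir-10b and mir-218a (0.57). Those most like miR-10b were mir-127 (0.89), mir-125b-2* (0.87), mir-30d (0.61), mir-146a (0.58) and mir-10a. The other miRNAs of the Hox clusters were close to absent. mir-196a and mir-196c had no read, and mir-196b and mir-615 had 6 reads each over the 9 libraries, at most 1.32 and 2.66 RPMM.

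The starts of the reads were far more alike between libraries than the levels. In miR-10a, 80.5% of the reads of the 5′ arm started at the first base of the entry and 18.7% started 1 nt later, with ranges of 78.7% to 83.3% and 15.8% to 20.6% over the 9 libraries. In miR-10b, 87.8% started at the matching base, which is 2 nts before its entry (86.0% to 90.3%), and 11.9% started 1 nt later (9.67% to 13.4%). The exact mature entry of miR-10b had 2 reads in all, 1 in epicardium of heart 6 and 1 in endocardium of heart 7, out of 14663. In each of the 9 libraries the later start was more frequent in miR-10a than in miR-10b, by 4.45 to 8.497 percentage points. Among 111 names whose reads could be placed against their own entry, miR-10b had the highest share of reads with another start, 99.9%, against a median of 1.40%.

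Sorted by seed, the reads of the pair fell almost wholly into 2 classes that both genes shared. The seed ACCCTGT, that of the miR-10a entry, was carried by 80.2% of miR-10a and 87.4% of miR-10b reads, and by between 79.3% and 83.4% of the reads of the pair in each library. The seed CCCTGTA, from reads that start 1 nt later, was carried by 18.6% and 11.8%. The seed registered for miR-10b, CCTGTAG, was found in 15 miR-10b reads, 0.102%, and in 211 miR-10a reads, 0.135%. In mid-myocardium of heart 8, where miR-10b was a larger part, 33.1% of the reads with the miR-10a seed came from miR-10b, and the summed level of that seed, 4088 RPMM, was still the second lowest. It ran from 3430 to 30211 RPMM over the 9 libraries.

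Between endocardium and epicardium the start shares and the share of the exact entry were compared by an exact permutation test. With 3 libraries against 3 its smallest two-sided p is 0.1. It could therefore call no share, and no absence of a difference is read from it. miR-10b reads with the earlier start made up 88.7% ± 1.41 in endocardium and 87.7% ± 0.866 in epicardium (SD, n = 3, exact p = 0.6, adjusted p = 0.80 over the 4 shares compared). miR-10a reads that started 1 nt late made up 18.4% ± 0.767 and 18.7% ± 2.53 (n = 3, exact p = 0.9, adjusted p = 0.90). The exact miR-10a entry accounted for 8.21% ± 1.55 of miR-10a reads in endocardium and 6.87% ± 0.136 in epicardium (n = 3, exact p = 0.1, adjusted p = 0.40). It was 7.19%, 9.998% and 7.44% in endocardium of hearts 6, 7 and 8 and 6.81%, 7.03% and 6.78% in epicardium, without overlap. The difference of 1.34 percentage points was 0.442 without endocardium of heart 7.

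**Figure D4:**
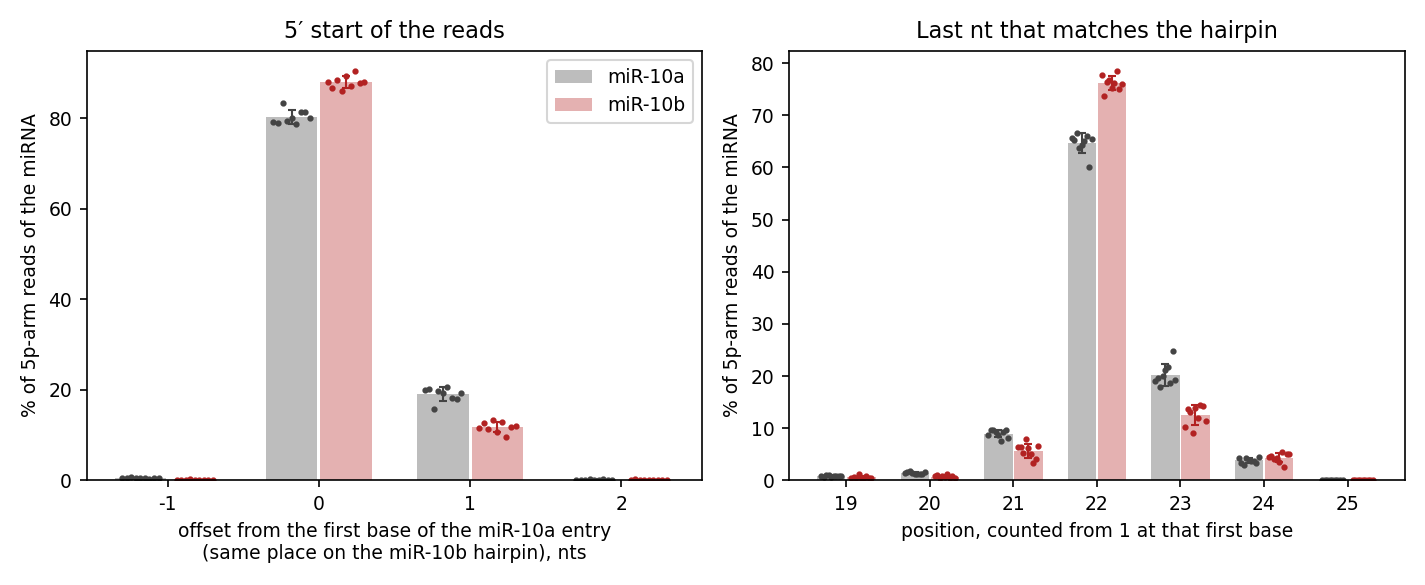
Share of 5′-arm reads by start (left, offset from the first base of the miR-10a entry) and by the last nt that matches the hairpin (right), for miR-10a and miR-10b. Bars are means of 9 libraries with SD and points are libraries; the starts 0 and 1 hold nearly all reads of both miRNAs, and position 22 is the most frequent end in each.

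At the 3′ end the most frequent last matching base was position 22, 1 nt before the end of the miR-10a entry. It closed 64.4% of miR-10a reads (60.1% to 66.6% over the 9 libraries) and 76.1% of miR-10b reads (73.7% to 78.4%), and the share was higher in miR-10b in 9 of 9 libraries. Accordingly the most abundant sequence took 55.6% of miR-10a and 69.8% of miR-10b reads. The mature entry of miR-10a took 7.76%. The most abundant miR-10a sequence had a mean of 11757 RPMM and ran from 1935 to 19071 RPMM, and the most abundant miR-10b sequence had a mean of 1261 RPMM and ran from 270 to 2683 RPMM.

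A 3′ tail that does not match the hairpin was read on 10.6% of miR-10a reads and on 5.18% of miR-10b reads, more often in miR-10a in 9 of 9 libraries. A tail was counted from the first base near a read's end that did not match the hairpin. A substitution or read error there was therefore counted as well. Most of these tails began with A, a base that nucleotidyl transferases are known to add to miRNAs, on 9.56% and 4.38% of reads. The most abundant tailed sequences are shown because they differ in their start as well as in their gene.
miR-10a, most abundant with a 3′ tail: aCCCTGTAgatccgaatttgtga
miR-10b, most abundant with a 3′ tail: tACCCTGTagaaccgaatttgtga
The miR-10a sequence starts 1 nt late and the miR-10b sequence at the more frequent start. The former had a mean of 772 RPMM, ranking 6 among the miR-10a sequences. Tails that began with G were rarer and less even. In miR-10a they made up 0.184% of reads in endocardium of heart 6 and 0.206% in epicardium of heart 8, but 0.992% in mid-myocardium and 1.38% in endocardium of heart 7.

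Taken one by one, the abundant sequences were all lower in endocardium. With a mean of at least 50 RPMM over the 6 libraries of epicardium and endocardium, 17 miR-10a and 6 miR-10b sequences entered limma's fit of 804 unique sequences, in which 0 were called (0%) and 14 had an unadjusted p under 0.05. edgeR called 0 as well, with 12. The log2 difference, endocardium minus epicardium, ran from -1.49 to -0.81 with a median of -1.23 in miR-10a, and from -1.89 to -1.27 with a median of -1.61 in miR-10b. All 23 were below 0, as were 392 of the 804 sequences tested (48.8%), and the median of all 804 was 0.01. Some of the 23 entered through their epicardial level. The miR-10b sequence with the lowest value had 140 RPMM in epicardium and 46.9 in endocardium, the latter under the limit of 50. Their direction is not read as a result, since the contrast of these layers chose the pair. Being parts of the same counts, these sequences repeat the description of the levels and add no support to it.

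Reads of the opposite arm were scarce. Of miR-10a reads 69 fell on the 3′ arm, 0.0442% of the total, between 0 in mid-myocardium of heart 8 and 16 in epicardium of heart 7. Their most abundant sequence had 42 reads and ended 1 nt before the RefSeq product.
miR-10a, most abundant of the 3′ arm: cAAATTCGtatctaggggaat
All were filed as precursor matches and none as a star sequence. miR-10b had 0 reads of its 3′ arm among 14663, which allows a share of up to 0.0205%.

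Marker miRNAs of the wall's cell types were summed per library to describe the samples. The cardiomyocyte list (mir-1, mir-133a, mir-133b, mir-208 and mir-499) was present with 5 of 5 members and ran from 52372 to 105254 RPMM in epicardium, 102790 to 140571 in mid-myocardium and 59542 to 101405 in endocardium. The endothelial miRNA mir-126 ran from 4189 to 8282 RPMM in epicardium, 6196 to 6380 in mid-myocardium and 3288 to 5655 in endocardium. The smooth muscle and pericyte list (2 of 2) overlapped between the layers. The fibroblast list (2 of 2) ran from 1517 to 2300 RPMM in epicardium, 2666 to 2861 in mid-myocardium and 1494 to 2753 in endocardium. The red cell list (3 of 3) ran from 111919 to 162779 RPMM in epicardium, 93734 to 137286 in mid-myocardium and 148685 to 228848 in endocardium. Without overlap, mid-myocardium lay above epicardium for the fibroblast sum. Against endocardium it lay above for the cardiomyocyte sum and for mir-126, and below for the red cell sum. In these sums only mir-199a, mir-133a and mir-486 separated in this way, and the other members overlapped. The share of all names that separate in these directions is not given here, so nothing is read from these separations. The leukocyte list (3 of 3) ran from 5733 to 12683 RPMM in epicardium and 8658 to 13398 in endocardium. The epithelial and mesothelial list (3 of 5 with at least 10 reads in a library) ran from 34.1 to 93.4 RPMM in epicardium and 18.9 to 48.7 in endocardium, and the neural list (1 of 2, with mir-124 at 0) from 113 to 205 and 63.3 to 148. In mid-myocardium of heart 8 the cardiomyocyte sum was the highest and the red cell and smooth muscle sums the lowest of the 9 libraries. mir-133a (132153 RPMM there), mir-486 (92952) and mir-143 (90098) made up most of these sums. mir-1, mir-208 and mir-499 were also highest there, but mir-133b was not. mir-451 was at 693 RPMM, against 376 in epicardium of heart 8, and mir-144 at 89.3, against 18.3 in endocardium of heart 6. mir-145 was at 1273 RPMM, against 978 in epicardium of heart 8. The paper cites mir-486 as enriched in cardiac and skeletal muscle. The part of these differences in the levels of miR-10a and miR-10b was not tested.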

How the data were processed

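Small RNA libraries (TruSeq) of 3 layers from 3 hearts were annotated by the authors with CLC Genomics Workbench against miRBase v18, allowing up to 2 mismatches and up to 3 nts added or removed at an end. Reads were matched to miRBase entries, and the deposited files carry no coordinates. The authors deposited each annotated sequence in RPM on the annotated reads of its library (RPMM), and 100% of values were whole reads within 0.1 read, so reads were recovered. One read was worth 0.70 to 3.52 RPMM and 3 reads 2.10 to 10.6 RPMM. The grouped table that the authors deposited holds a signal in RPM on other totals and entered as an alternative. The third file that the authors deposited holds the read count of unannotated sequences above a minimum count. Of these, 0 held the central stretch of miR-10a or miR-10b. Under the authors' matching rule, reads with that stretch would mostly be annotated. The 0 therefore sets no limit on unannotated miR-10 reads.

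Rows were summed by rat name, and a name was tested if any 1 library of the comparison had 10 reads or more. limma (lmFit and eBayes) was run on log2(RPMM + 1) with Benjamini-Hochberg adjustment. Fold changes on this scale understate low values. Each heart gave all 3 layers, so heart numbers pair the libraries by animal. Over 180 names, deviations from the layer means correlated by 0.36 to 0.58 within heart 6, by -0.30 to 0.25 within heart 7 and by 0.07 to 0.15 within heart 8. The main fits carry no block and the block was an alternative. Reads were placed on the RefSeq hairpins. For shares, the 3 libraries of each layer were permuted exactly (two-sided), without regard to the heart. The fits and the placement of reads were tested on simulated data. Sequences shown are the most abundant by mean RPMM, the mature entries and the most abundant with a feature. Alternatives were TMM, DESeq2's size factors and Wald test, edgeR, Baggerley's test, pseudocounts of 0.1 and 10, filters, the block, all 9 libraries, other species, and each library left out. The members and lists were chosen with earlier results of these data known. Software was R 4.3.3, limma 3.58.1, edgeR 4.0.16, DESeq2 1.42.0, and, under Python 3.11.15, scipy 1.17.1, pandas 2.3.3, matplotlib 3.10.9 and numpy 2.4.6.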

Additional observations from a re-analysis of the deposited data

Results flagged for a closer look

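Outside the rat entries, 145 reads of 55 sequences were filed under miR-10 names of 14 other species, among them mosquito, water flea and aphid. They are set apart here because no comparison of the report uses them. They numbered between 0 in mid-myocardium of heart 8 and 29 in epicardium of heart 6 and in endocardium of heart 7, or up to 42.3 RPMM in mid-myocardium of heart 6. The rat entries held 170678 reads, those filed under both names included. With other species' names added to the fits as names of their own, no call of a layer comparison changed. The members' values in those fits still did not include these reads. Groups of 3 libraries are too small for the test of single high or low samples.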

How the results depend on the processing

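Of 261 alternative values, 239 were labelled the same as the reported one. For the members' log2 differences this meant the same direction and the same side of the threshold. For shares and for the correlation of the pair it meant the same direction only, whatever the size. For counts of calls it meant the same number. The F values between hearts have no direction to lose. Between endocardium and epicardium Baggerley's test called 3 names, and leaving out single libraries gave between 0 and 3 calls, the 3 without endocardium of heart 7. None of these calls was miR-10a or miR-10b. Baggerley's test was recomputed here on recovered reads summed by name, so its calls need not match those of the study's own run. The paper reports a gradient of miR-10b from its grouped sequencing values and by qPCR in additional hearts. Between mid-myocardium and epicardium DESeq2's test called 1 name, miR-10b. The replicate block changed no call. Combined with leaving out a library, a pair of settings chosen after seeing the data, the replicate block gave 2 calls between endocardium and epicardium without endocardium of heart 6. Without mid-myocardium of heart 8 it gave 4 calls between mid-myocardium and epicardium, 1 of them miR-10b (limma log2 difference -1.54). The epicardial libraries took part in choosing the pair, so neither call of miR-10b is independent of that choice. limma's main fit of that comparison called 0 of 277 names. Between hearts TMM and DESeq2's size factors gave 2 calls each, a pseudocount of 10 gave 6, the filter at a mean of 10 RPMM gave 4, and leaving out single libraries 0 to 3, with 3 without mid-myocardium of heart 8 and 1 each without epicardium of heart 8 and mid-myocardium of heart 7. For mid-myocardium minus endocardium, leaving out single libraries gave -0.61 to 1.20 for miR-10a and -0.43 to 0.70 for miR-10b on the log2 scale, and DESeq2 gave -0.038 for miR-10b. The share of miR-10a reads that start 1 nt late, endocardium minus epicardium, ran from -1.73 to 0.51 percentage points when single libraries were left out, and turned to 0.41, 0.51 and 0.0073 without epicardium of heart 6, epicardium of heart 7 and endocardium of heart 7. The causes were not tested. With 3 libraries a layer, 1 library decides the size of most differences, and a share test cannot reach p under 0.1, or 0.25 within hearts. At 269 to 3574 miR-10b reads a library, shares near 0.1% rest on a handful of reads.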
